A study of Mus musculus with 4 samples.

Results

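Krtdap, Sbsn and Dmkn encode secreted proteins of the upper epidermis and lie next to each other in the genome in the order Sbsn, Dmkn, Krtdap. They were selected by gene symbol on the array, and earlier measured genotype ratios of these same arrays led to their selection, so those ratios are given below as a description without a test. The 3 genes, of 27670 on the array, were covered by 6 of 41174 gene probes, 2 for each gene. RNA came from cultured epidermal keratinocytes of mice at age P3 that all carried K5-Cre, a recombinase driven by the keratin 5 promoter of basal keratinocytes, and a loxP-flanked Casp-8 allele, written F. Caspase-8, its product, is a protease that starts apoptosis downstream of death receptors. F/- mice (Casp-8F/-K5-Cre) had a null allele beside the flanked one, and F/+ mice (Casp-8F/+K5-Cre) had a wild-type allele there. Cultures were set up from 2 mice per genotype and RNA was taken at passage 1 (early) and passage 3 (late), which gave 8 RNA samples on 4 two-colour arrays. On each array a numbered pair was hybridised together, F/- in Cy3 against F/+ in Cy5, with 2 arrays per passage. No array had the dyes exchanged, so a genotype difference and a dye difference cannot be told apart in any single ratio.

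The epidermis is renewed from a basal layer whose cells stop dividing, move upwards and assemble a cornified envelope. Suprabasin (Sbsn), dermokine (Dmkn) and keratinocyte differentiation-associated protein (Krtdap) are made by the cells above the basal layer and are secreted. Dmkn is known to give several isoforms from more than one start site. In cultured keratinocytes genes of this kind are known to follow the state of differentiation of the culture.

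For the late F/+ samples the labels disagree: the source name states the first passage, and the title, description and passage entry state passage 3. Passage 3 was used, and all F/+ passage results rest on that reading. All 9 keratinocyte markers, Krt5 and Krt14 among them, were well above background in every genotype and passage, as the label states. Between 75.8% and 87.9% of gene spots per array and channel were well above background, and 0 were saturated. The probe for Casp8, the targeted gene, had log2 ratios of F/- over F/+ of 0.42 and 0.18 at passage 1 and 0.47 and -0.20 at passage 3. Where this probe lies relative to the deleted part is not given in the sources used here, and it therefore does not check the genotype labels. The 4 arrays lay on 1 slide, per the file headers. Because RNA was taken from whole cultures, fewer cells of a type and less RNA per cell cannot be told apart.

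RefSeq sequence before 1 start site each of Sbsn and Krtdap and before 2 of Dmkn is shown because the 3 genes moved together with passage, as described below. Each window holds the 250 bases up to the start site on the + strand of GRCm38.p6, and capitals mark TGANTCA, a loosened form of the sequence bound by AP-1 (dimers of Fos and Jun proteins), whose middle base is usually G or C. The windows are chr7:30751221-30751470 for Sbsn, chr7:30763506-30763755 for the upstream start of Dmkn, chr7:30776155-30776404 for the internal start of Dmkn and chr7:30787655-30787904 for Krtdap.
Sbsn: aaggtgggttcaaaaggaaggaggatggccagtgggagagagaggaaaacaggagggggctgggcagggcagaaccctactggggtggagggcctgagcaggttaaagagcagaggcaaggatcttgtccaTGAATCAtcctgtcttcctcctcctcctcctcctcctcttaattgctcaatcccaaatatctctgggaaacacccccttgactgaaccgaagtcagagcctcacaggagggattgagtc
Dmkn, upstream start: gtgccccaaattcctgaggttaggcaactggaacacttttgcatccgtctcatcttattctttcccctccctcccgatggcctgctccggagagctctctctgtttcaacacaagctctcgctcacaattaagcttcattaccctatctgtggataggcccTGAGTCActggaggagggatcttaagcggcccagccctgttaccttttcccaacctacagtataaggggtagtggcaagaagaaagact
Dmkn, internal start: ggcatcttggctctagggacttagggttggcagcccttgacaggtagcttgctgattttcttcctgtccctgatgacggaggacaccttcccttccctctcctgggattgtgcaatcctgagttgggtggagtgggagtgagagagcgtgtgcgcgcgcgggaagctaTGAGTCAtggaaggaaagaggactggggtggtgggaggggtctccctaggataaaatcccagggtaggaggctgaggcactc
Krtdap: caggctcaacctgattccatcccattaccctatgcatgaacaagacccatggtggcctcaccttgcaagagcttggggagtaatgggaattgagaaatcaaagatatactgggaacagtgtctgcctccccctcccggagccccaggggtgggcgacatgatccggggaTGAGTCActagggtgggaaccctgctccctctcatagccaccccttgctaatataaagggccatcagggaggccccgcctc

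Each of these 4 windows held 1 match to TGANTCA, a palindrome that reads the same on both strands. Counting back from the start site, the match lay at -119 to -113 in Sbsn, where it read TGAATCA and so lacked the usual middle base. It read TGAGTCA at -89 to -83 and at -82 to -76 in the upstream and internal windows of Dmkn, and at -81 to -75 in Krtdap. A further annotated start of Dmkn lies so close to the upstream one that its window holds the same match. Of 32851 windows of this length over all genes, 2217 (6.75%) held TGANTCA. By gene, 2113 of 27025 (7.82%) had it in any of their windows. The share was higher in some genes of the same tissue. It was 8 of 29 for differentiation and cornified envelope genes (27.6%) and 4 of 18 for other secreted proteins of the upper epidermis (22.2%). For transcription regulators of epidermal differentiation it was 1 of 21 (4.76%), and for the genes around the cluster 4 of 19 (21.1%). Krtdap alone of the 3 genes had TATAAA on either strand, at -30 to -25, which 12.4% of all windows hold. CACCC, searched on both strands, occurred in the Sbsn, the internal Dmkn and the Krtdap windows and in 52.0% of all windows, while CCAAT and AGATAA, each searched on both strands, occurred in none of the printed windows. No searched motif overlapped another in these windows. The motifs were chosen after the sequences had been seen, and a match is a description of letters only.

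Across genotypes, Krtdap gave lower signal in F/- than in F/+ on all 4 arrays with both of its probes. The brighter Krtdap probe (A_52_P702887), the one with the higher mean intensity, had log2 ratios of F/- over F/+ of -2.07 in pair 1 and -1.44 in pair 2 at passage 1, and of -1.73 and -0.65 at passage 3. The mean was -1.47 ± 0.60 (SD, n = 4 arrays), which is 2.78-fold lower in F/-. Pair 1 had the lower ratio at both passages. The dimmer Krtdap probe (A_51_P146223) gave -2.11 and -1.41 early and -1.29 and -0.41 late, with a mean of -1.31 ± 0.70 (SD, n = 4). Both probes were lowest on the early array of pair 1 and highest on the late array of pair 2. The order of the remaining arrays differed between the probes.

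For Sbsn, the probes were unlike each other. The brighter Sbsn probe (A_52_P573336) had log2 ratios of -1.47 and -0.67 early and -1.42 and -1.20 late, a mean of -1.19 ± 0.36 (SD, n = 4), 2.28-fold lower in F/-. All of these were below 0. The dimmer Sbsn probe (A_51_P387437) had ratios of 0.51 and 1.03 early and -0.14 and -0.07 late, with a mean of 0.33 ± 0.55 (SD, n = 4). Its early ratios were above 0 and its late ratios just below it. The array annotation assigns both Sbsn probes to a single transcript.

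Dmkn showed the same split between probes. The brighter Dmkn probe (A_51_P296109), annotated to transcript variant 1, had log2 ratios of -1.25 and -0.60 early and -1.38 and -1.07 late, a mean of -1.07 ± 0.34 (SD, n = 4), 2.11-fold lower in F/-. It was below 0 on every array. The dimmer Dmkn probe (A_52_P241383), annotated to transcript variant 2, had ratios of 0.28 and 1.11 early and -0.33 and -0.14 late, with a mean of 0.23 ± 0.64 (SD, n = 4). As with Sbsn, it was above 0 on both early and below 0 on both late arrays.

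**Figure D1:**
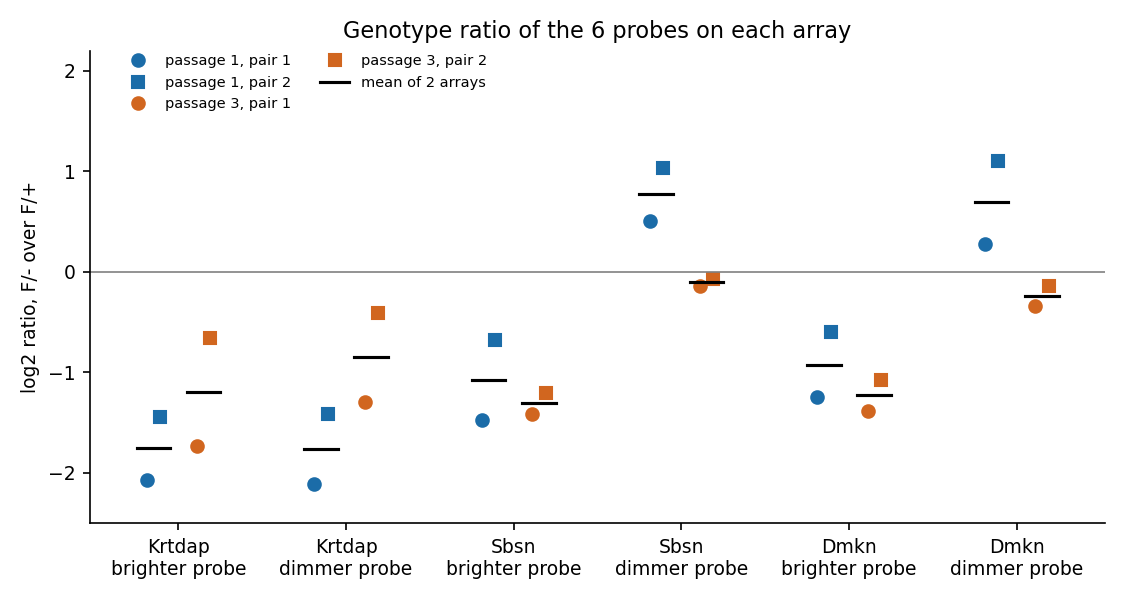
Log2 ratio of F/- over F/+ (vertical axis) on each array for the 6 probes, with circles for pair 1, squares for pair 2, blue for passage 1, orange for passage 3 and bars for the mean of the 2 arrays of a passage. Both Krtdap probes and the brighter Sbsn and Dmkn probes lie below 0 on all 4 arrays, while the dimmer Sbsn and Dmkn probes lie above 0 early.

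In the mean of the 4 arrays, 4 of the 6 probes were more than 2-fold lower in F/-, against 0.194% of all 35574 probes kept. At passage 1, 3 of 6 were (0.337% of all probes), namely both Krtdap probes and the brighter Sbsn probe. At passage 3, 3 of 6 were (0.413%), namely the brighter probe of each gene. Ratios below 0 on all 4 arrays were found for 4 of 6 probes (19.9% of all probes), and early ratios above 0 with late ratios below 0 for the remaining 2 (4.21%). Within a single passage limma called 0 probes of any gene, while 7333 (20.6%) at passage 1 and 7109 (20%) at passage 3 had an unadjusted p under 0.05. These shares stand beside the counts only for scale, since the genotype ratios led to the choice of the genes.

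The spread between probes was set against that of other genes. The brighter minus the dimmer Sbsn probe gave log2 ratio differences of -1.97 and -1.71 early and -1.27 and -1.13 late, a mean of -1.52 ± 0.39 (SD, n = 4). For Dmkn these differences were -1.52 and -1.70 early and -1.05 and -0.94 late, a mean of -1.30 ± 0.37 (SD, n = 4). For Krtdap the mean difference was only -0.17 ± 0.22 (SD, n = 4). In the 4696 other pairs of probes that share a transcript annotation, the median size of the difference was 0.151 and 0.468% exceeded 1. Only 1 of those pairs differed by as much as the Sbsn probes and 6 by as much as the Dmkn probes, while 46.2% differed by as much as the Krtdap probes. Among the 609 pairs in which both probes were at least as bright as the dimmer Dmkn probe, 5 differed by more than 1. The Dmkn probes are annotated to different transcript variants, unlike the pairs counted here. Where on the transcripts the probes lie is not given in the sources used here, and what separates the probes was not tested.

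**Figure D2:**
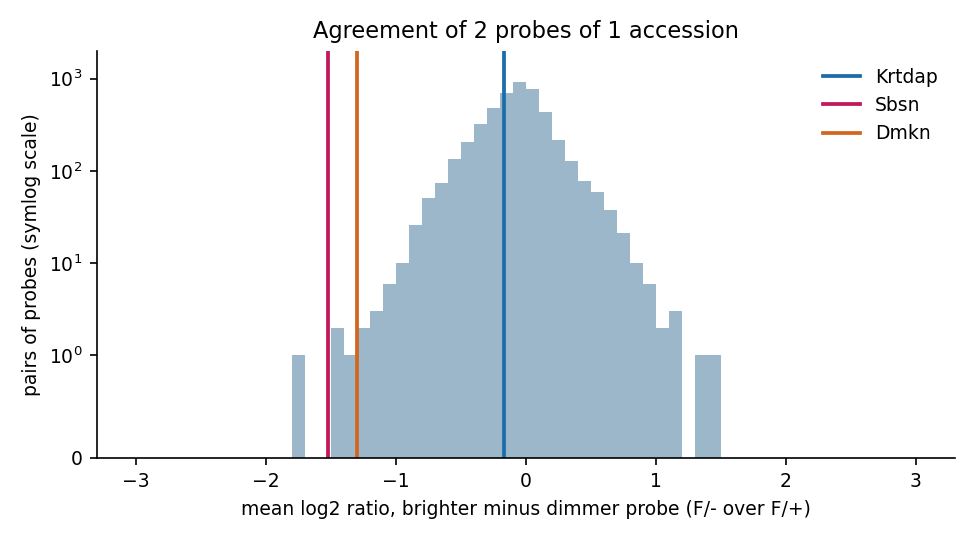
Number of pairs of probes that share a transcript annotation (vertical axis, symmetric log scale) by the mean over 4 arrays of the brighter minus the dimmer probe's log2 ratio of F/- over F/+ (horizontal axis). Vertical lines mark Krtdap at -0.17, Dmkn at -1.30 and Sbsn at -1.52; the Krtdap line lies in the bulk of the pairs and the other lines in its thin lower tail.

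With passage, all 3 genes fell steeply in both genotypes. Levels are normalized log2 intensities of each channel and are compared only within a probe. For Krtdap the brighter probe read 11.99 and 12.34 in F/- at passage 1 and 6.89 and 6.83 at passage 3. In F/+ it read 14.06 and 13.78 at passage 1 and 8.62 and 7.48 at passage 3. Every late value lay below every early value. The change was -5.30 (SE 0.50) on the log2 scale in F/- and -5.87 (SE 0.50) in F/+, a 39.5-fold fall (95% interval 17.5 to 88.8) and a 58.3-fold fall (25.9 to 131), with limma adjusted p = 0.00215 and 0.00143.

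Sbsn fell with both probes. The brighter probe read 15.66 and 16.12 in F/- and 17.13 and 16.79 in F/+ at passage 1. At passage 3 it read 11.59 and 11.34 in F/- and 13.01 and 12.54 in F/+. Early and late values did not overlap in either genotype. It fell 21.5-fold in F/- (95% interval 12.3 to 37.5; limma adjusted p = 0.00111) and 18.3-fold in F/+ (10.5 to 31.8; 0.0012). The dimmer Sbsn probe, which had the raised early ratio, read 13.95 and 14.51 in F/- and 13.44 and 13.48 in F/+ at passage 1. At passage 3 it read 8.73 and 8.28 in F/- and 8.88 and 8.34 in F/+, so the genotypes overlapped late and not early. Its fall was 53.0-fold in F/- (limma adjusted p = 0.000237) and 28.9-fold in F/+ (0.000348).

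Dmkn fell least of the 3 by its brighter probe. That probe read 14.50 and 14.75 in F/- and 15.75 and 15.35 in F/+ at passage 1. At passage 3 it read 11.02 and 11.32 in F/- and 12.40 and 12.39 in F/+. Again no late value reached an early one. The fall was 11.0-fold in F/- (95% interval 6.81 to 17.8; limma adjusted p = 0.00155) and 8.91-fold in F/+ (5.51 to 14.4; 0.00195). The dimmer Dmkn probe read 12.72 and 13.36 in F/- and 12.44 and 12.25 in F/+ at passage 1, and 9.62 and 9.18 against 9.95 and 9.32 at passage 3. It fell 12.5-fold in F/- (limma adjusted p = 0.00308) and 6.56-fold in F/+ (0.00853). The dimmer Krtdap probe fell 33.6-fold in F/- and 63.1-fold in F/+ (limma adjusted p = 0.00164 and 0.000849).

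**Figure D3:**
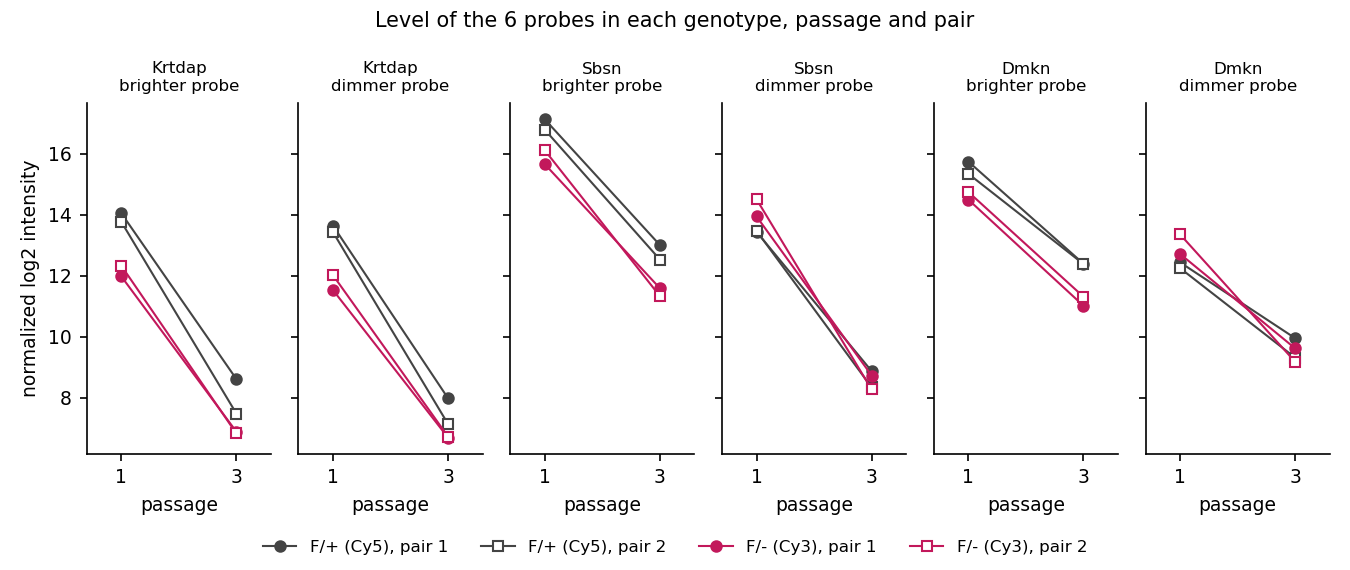
Normalized log2 intensity (vertical axis) of the 6 probes at passages 1 and 3 (horizontal axis), with grey for F/+ (Cy5), pink for F/- (Cy3), filled circles for pair 1 and open squares for pair 2, and a line joining the channels of a pair and genotype. Every line falls, and the pink and grey points lie apart for both Krtdap probes and the brighter Sbsn and Dmkn probes.

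All 6 probes passed the test as lower in both genotypes, against 2.11% of 35475 probes in F/- and 2.31% in F/+. Calls in either direction made up 5.1% and 5.66% of probes, with 2.98% and 3.35% higher. More than 8-fold falls were seen for 6 of 6 probes in F/- (0.273% of all probes) and 5 of 6 in F/+ (0.31%), the exception being the dimmer Dmkn probe. Both late values lay below both early values for 6 of 6 probes in each genotype, as for 26.8% and 24.1% of all probes. By size, the Krtdap brighter probe ranked 18 from the lowest in F/- and 7 in F/+, Sbsn 41 and 47, and Dmkn 69 and 95. The same mice were sampled at both passages, and the fit had no term for the mouse. Its p-values rest on the spread between cultures of 2 mice within each genotype and passage, pooled over these groups. They do not measure how the change with passage varied between mice.

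At passage 3 the Krtdap signal in F/- was near the floor of the measurement. The raw Cy3 signal of its brighter probe was 83.1 and 72.1 over a local background of 39 and 37, still well above background by the scanner's call. An offset of 50 was added in the background correction, which pulls such low values together. With an offset of 0 the change of the brighter probe on the log2 scale was -6.26 in F/- in place of -5.30. In F/+ it was also -6.26, in place of -5.87, so the gap between the genotypes in this fall depended on the offset. The dimmer Krtdap probe then gave -6.16 in F/- and -6.51 in F/+. Leaving out the early array of pair 1 or of pair 2 ended the call of the brighter Krtdap probe in F/- (limma adjusted p = 0.0871 and 0.0921) and in F/+ (0.0702 and 0.062), with changes of -5.13 to -5.48 in F/- and -5.73 to -6.01 in F/+. The dimmer Krtdap probe lost its call in F/- without either early array (limma adjusted p = 0.0668 and 0.0709). The dimmer Dmkn probe lost its call in F/- without the early array of pair 2 (0.0527) and in F/+ without that of pair 1 or pair 2 (0.0702 and 0.0585).

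By the brighter probes, the order of the 4 conditions was the same for all 3 genes: F/+ early, F/- early, F/+ late, F/- late. For Krtdap the means were 13.92 ± 0.20, 12.16 ± 0.25, 8.05 ± 0.80 and 6.86 ± 0.042 (SD, n = 2 each). For Sbsn they were 16.96 ± 0.24, 15.89 ± 0.32, 12.77 ± 0.34 and 11.46 ± 0.18. For Dmkn they were 15.55 ± 0.28, 14.63 ± 0.18, 12.39 ± 0.0077 and 11.17 ± 0.21. No neighbouring conditions in this order overlapped in their values for these 3 probes. The steps between genotypes are the ratios that led to the choice of the genes. How many of all probes have this order was not computed, so the order is a description only. The dimmer Sbsn probe had F/- early (14.23 ± 0.40) above F/+ early (13.46 ± 0.023), and its late levels, 8.61 ± 0.38 in F/+ and 8.50 ± 0.32 in F/-, overlapped. The dimmer Dmkn probe had 13.04 ± 0.45 in F/- and 12.35 ± 0.13 in F/+ early, and overlapping late levels of 9.64 ± 0.45 in F/+ and 9.40 ± 0.31 in F/-.

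The difference of the genotype ratio between passages, late minus early, is built from the same ratios that led to the choice of the genes and is given without a test. A dye effect that is equal on all arrays cancels in it. On the log2 scale it was 0.56 for the brighter Krtdap probe, -0.24 for the brighter Sbsn probe and -0.30 for the brighter Dmkn probe. The dimmer probes gave 0.91 for Krtdap, -0.88 for Sbsn and -0.93 for Dmkn. In this processing Krtdap thus had the higher ratio late by both probes, and Sbsn and Dmkn the lower one. These directions depended on the processing. With a background offset of 0 the brighter and dimmer Krtdap probes gave 0.0008 and 0.36, and with scanner ratios -0.24 and 0.045. Median centring gave 0.21 and -0.60 for the brighter and dimmer Sbsn probes, and 0.0086 and -0.80 for those of Dmkn. In limma's test of this difference over all probes 0 (0%) were called, and 2074 (5.83%) had an unadjusted p under 0.05.

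The genes around the cluster were compared with it. Of the 10 protein-coding genes on each side, 18 of 20 were measured. Their mean log2 ratios of F/- over F/+ ran from -0.73 (Cox6b1, a subunit of cytochrome c oxidase) to 0.78 (Usf2, a transcription factor), with a median of -0.11. Usf2 was the only neighbour called (limma adjusted p = 0.0257), in a comparison that called 8.84% of all probes, 2.99% lower and 5.85% higher; no probe was called without either early array or the late array of pair 1. With passage, the neighbours had a median log2 change of -0.16 in F/- and -0.33 in F/+, and their lowest values were -1.92 and -1.41, both for Cox6b1, which was not called. Gapdhs, the sperm glyceraldehyde-3-phosphate dehydrogenase next to Sbsn, was the only neighbour called with passage, falling by 0.74 in F/+ (limma adjusted p = 0.0375). None of the 18 fell as far as Sbsn, Dmkn or Krtdap, whose brighter probes changed by -4.43, -3.46 and -5.30 in F/-. TGANTCA also occurred in the windows of 4 of 19 neighbours.

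**Figure D4:**
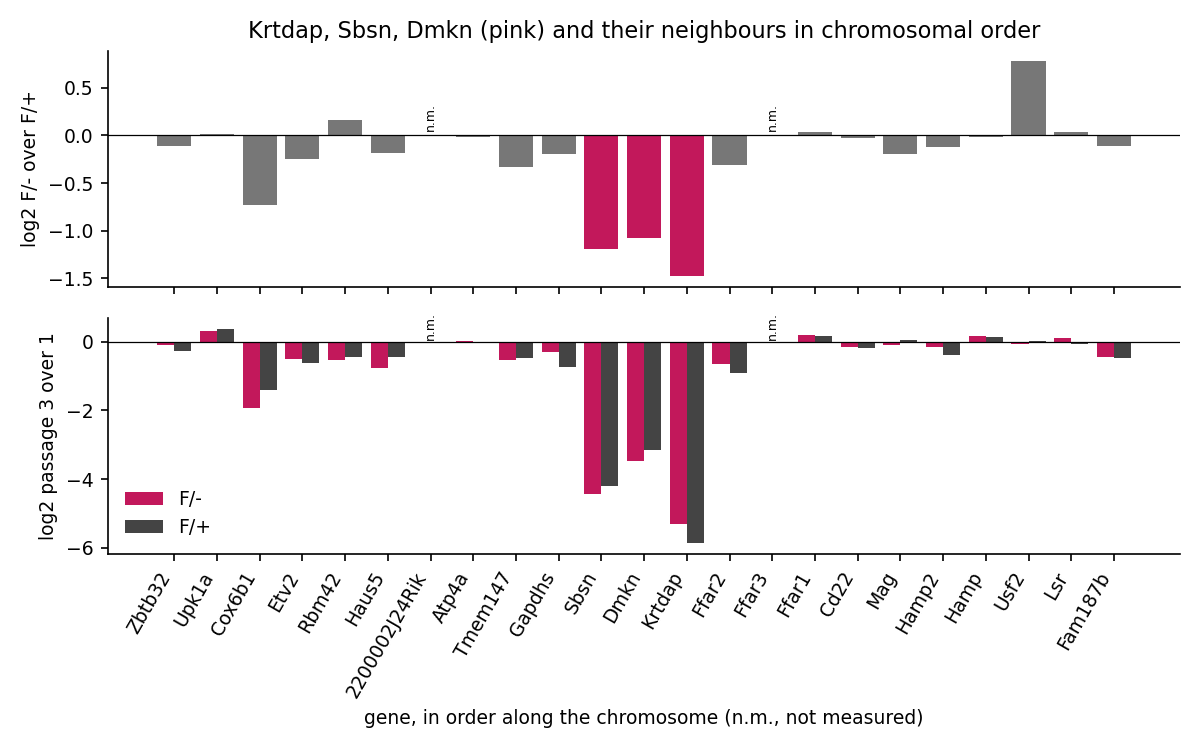
Mean log2 ratio of F/- over F/+ (upper panel) and log2 passage 3 over passage 1 in each genotype (lower panel) for the 3 genes and their 20 neighbours in chromosomal order, each by its brightest probe; bars start at 0 and n.m. marks genes not measured. In the lower panel Sbsn, Dmkn and Krtdap stand between -3.15 and -5.87, and the lowest neighbour, Cox6b1, is at -1.92.

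Other genes of the upper epidermis gave the setting of these changes. Of 35 measured genes of differentiation and the cornified envelope, 18 fell and 0 rose with passage in F/- (median log2 change -1.72), and 21 fell and 0 rose in F/+ (median -2.52). Over all genes 561 fell and 821 rose of 23950 in F/- (median 0.025), and 581 fell and 937 rose in F/+ (median 0.038). Counts over all probes depended on single arrays: of 1808 calls in F/- and 2008 in F/+, 97 and 177 were made without the early array of pair 1, 144 and 215 without that of pair 2, and 3111 and 4650 without the late array of pair 1. Calm4, a calcium-binding protein of the upper layers, fell with log2 changes of -5.78 in F/- and -5.29 in F/+. Some envelope genes did not pass the test: Ivl (involucrin, an envelope scaffold) changed by 0.65 in F/- and 0.85 in F/+, and Tchh (trichohyalin) had -1.69 and -1.39. Calml3, a calmodulin-like protein, did not pass in F/- (-1.65) and was called lower in F/+ (-2.41, limma adjusted p = 0.0304). In the mean genotype ratio, 8 of these 35 were called lower and 0 higher (median -0.46), with Calml3 at -1.14 and Calm4 at -1.11 lowest and Ivl at 0.35 and Tchh at 0.03 highest. Over all 24035 genes, 824 (3.43%) were called lower and 1129 (4.70%) higher (median -0.02). With the arrays of a pair averaged first, so that each pair of mice counts once, 0 probes were called in the mean ratio; this holds for every call on the mean ratio given here.

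Of 24 other secreted proteins of the upper epidermis, 9 fell and 2 rose with passage in F/-, and 9 fell and 3 rose in F/+. Spink5, the inhibitor of the kallikrein proteases of the skin, fell with log2 changes of -4.85 and -5.39, and Lcn2, an iron-siderophore binding protein, rose by 2.99 and 2.67 (Lcn2 was chosen after its values were seen). In the mean genotype ratio 8 of the 24 were called lower and 0 higher (median -0.25). Spink5 (-1.86) and the galectin Lgals7 (-1.81) were lowest, and Ecm1 (0.59) and the interleukin-1 family cytokine Il1f6 (0.23) highest; the last 2 did not pass the test.

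Among 34 measured transcription regulators of differentiation, 9 fell and 0 rose with passage in F/- and 7 fell and 0 rose in F/+. Hopx, a homeodomain protein, fell with log2 changes of -4.61 and -5.05, and Grhl1, a grainyhead factor, with -2.61 and -2.62. Cebpa had -0.34 and -0.31 and Fosl1 had -1.99 and -1.79, none of which passed. In the mean genotype ratio 2 of 34 were called lower and 1 higher, the latter being Cebpa (0.67), shares of 5.88% and 2.94% that lie near those over all genes; Hopx (-0.97), Grhl1 (-0.82) and Fosl1 (0.53) were not called. Of the Fos and Jun genes, which were singled out after their values were seen, Fos fell with passage, with log2 changes of -2.76 in F/- and -2.84 in F/+. Fosb, Jun, Junb and Jund had changes between -0.68 and 0.45 that were not called. Of 18 calcium and contact signalling genes, 1 fell and 0 rose in each genotype with passage, namely the protein kinase Prkch, also singled out after its values were seen. In the mean genotype ratio Prkcd (0.60) was the only 1 of 18 called higher (5.56%, near the share over all genes), while S100a9 (-0.28), Casr (-0.19) and Tgfa (0.54) were not called. In late minus early, 0 genes of these lists passed in limma.

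Krt5 and Krt14, the keratins of basal cells, had passage changes of -0.27 and -0.13 in F/- and 0.13 and 0.24 in F/+, and none passed. In the mean genotype ratio, 3 of 9 keratinocyte markers were called lower in F/-, against 3.43% of all genes. They were Krt5 (-0.60), Krt14 (-0.66) and the desmosomal protein Perp (-0.55), with limma adjusted p of 0.0318, 0.0262 and 0.0262. The rest were not called. Krt1 (-0.13) and Krt10 (-0.57) lay below 0, and Trp63 (0.04), Dsg3 (0.26), Itga6 (0.29) and Sfn (0.47) above it. Of 10 leukocyte markers 1 was called higher, against 4.70% of all genes. It was Lyz2, the lysozyme of macrophages (1.27, limma adjusted p = 0.0258), with 0.33 at passage 1 and 2.21 at passage 3. Of the fibroblast, melanocyte and endothelial markers 0 were called in that ratio. The called markers moved beside the lower Krtdap, Sbsn and Dmkn ratios, and their part in those ratios was not tested. Summed marker levels of leukocytes, melanocytes and endothelial cells were lower at passage 3 in both genotypes. Those of fibroblasts were higher at passage 3 in F/- and overlapped between passages in F/+. With passage, 1 of the 10 leukocyte markers was called lower in F/- and 4 in F/+, and the rest were not called. Of the 5 melanocyte markers 3 were called lower in F/- and 2 in F/+, and the rest were not called. Over all genes these shares were 2.34% in F/- and 2.43% in F/+. Kdr alone was called with passage among the endothelial markers, with log2 changes of -2.47 in F/- and -2.85 in F/+. Cdh5 (0.18 and 0.21), Tek (0.16 and 0.15) and Pecam1 (-0.34 and -0.19) were not called. The 10 leukocyte markers summed to 23956 to 35192 in F/- and 22306 to 24835 in F/+ at passage 1, and to 8669 to 13340 and 3657 to 3657 at passage 3. The 5 melanocyte markers summed to 57235 to 57845 in F/- and 57761 to 68389 in F/+ early, and to 22927 to 24345 and 22261 to 23158 late. The 4 endothelial markers summed to 1095 to 1315 and 1355 to 1507 early and to 464 to 466 and 446 to 478 late, and the 7 fibroblast markers to 2449 to 2477 and 1989 to 3095 early and 4481 to 6368 and 2135 to 3223 late. The 9 keratinocyte markers summed to 426653 to 487884 and 541208 to 611426 early and to 410643 to 423879 and 575642 to 623985 late. All markers were well above background in each condition except 1 of the 4 endothelial ones. The part of these cell types in the fall of Krtdap, Sbsn and Dmkn was not tested.

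The genes whose pattern was most like each of the 3 were found by the root mean square difference of log2 channel values, each probe centred on its own mean, over 8 channels and 19806 genes that were well above background throughout. Channels of 1 array share a hybridisation, so this is a description. Krtdap was closest to Spink5 (0.365), Calm4 (0.381), Sprr1a (0.454), Il1f5 (0.466) and Kprp (0.468). Sbsn was closest to the envelope transglutaminase Tgm1 (0.268), Endou (0.281), the connexin Gjb6 (0.364), Cysrt1 (0.389) and Gsdma (0.396). Dmkn was closest to Sprr2h (0.284), the fatty acid elongase Elovl4 (0.308), Fam25c (0.318), the ceramidase Acer1 (0.355) and Stfa3 (0.365). Between the 3 genes themselves the difference was 0.539 for Sbsn and Dmkn, 0.705 for Krtdap and Sbsn and 1.21 for Krtdap and Dmkn, so none was among the closest genes of another.

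The mean genotype ratio of Sbsn and Dmkn depended on which probe stood for the gene. Averaging both probes gave -0.43 for Sbsn and -0.42 for Dmkn in place of -1.19 and -1.07. Centring each array on its median in place of loess gave -1.69 and -1.48. Under 13 alternatives the Krtdap brighter probe ran from -1.93 to -1.20.

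**Figure D5:**
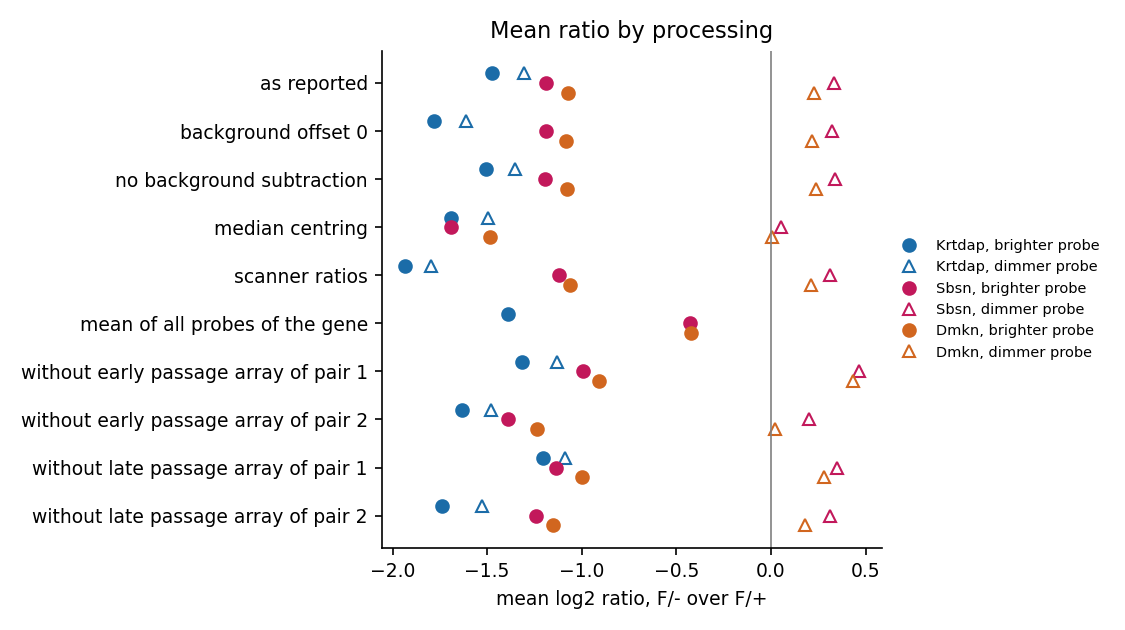
Mean log2 ratio of F/- over F/+ (horizontal axis) under the processing settings named on the vertical axis for the brighter (filled circles) and dimmer (open triangles) probes of Krtdap (blue), Sbsn (pink) and Dmkn (orange). Filled circles stay below 0 in all settings shown, and the triangles of Sbsn and Dmkn lie at or above 0.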

How the data were processed

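The submitters' processing notes name Agilent Feature Extraction 9.1.3.1. Per the file headers, the deposited scanner files give each spot's raw mean intensity and its median local background for Cy3 and Cy5. They also hold a log10 ratio of Cy5 over Cy3, and the authors' deposited value table equals that log10 ratio with the sign turned (largest gap 4.963e-06). Arrays here were corrected with normexp (offset 50) and normalized by loess within each array in limma 3.58.1 (R 4.3.3), and log2 ratios of F/- over F/+ were formed from the deposited intensity values. A probe was kept if either channel was well above background on 2 or more arrays and at most 1 array was missing. This left 35574 of 41174 probes, of which 35475 could be fitted by channel. Genotype ratios, their mean and late minus early were fitted with limma's moderated test, with passage as the group. Passage changes used limma's separate-channel fit after Aquantile normalization; the estimated intraspot correlation was 0.742. Tests were two-sided, with Benjamini-Hochberg adjustment over all probes and calls at 0.05; scripts were tested on simulated data. Precision is limited by having 2 arrays per passage. A gene is represented by its brightest probe, and the 2 lowest and 2 highest genes of each list, 10 neighbours per side and 5 most alike genes per member were named by rule. Il36a and Il36rn of the secreted list are on the array as Il1f6 and Il1f5. The members and gene lists were chosen with earlier results of these data known. Same-numbered arrays come from the same mice, per the series' design text, so the pair numbers pair the arrays; the deviations of same-numbered arrays correlated at -0.000464, and the pair as a block was an alternative. Alternatives covered background correction, normalization, the filter, single arrays left out, scanner ratios and the mean of all probes. Promoter windows were taken from a RefSeq table of GRCm38.p6 and matched by symbol; the arrays have no genome build, and probe sequences were not used here.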

Additional observations from a re-analysis of the deposited data

Results flagged for a closer look

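The dimmer Sbsn probe had a late minus early difference of -0.88 in its log2 ratio of F/- over F/+, because both early arrays lay above 0 and both late arrays below it. The dimmer Dmkn probe showed the same sign change, with a difference of -0.93. Of all probes, 4.21% had this pattern of signs. No test result is given for these differences, because the probes were picked for the pattern.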

How the results depend on the processing

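The mean of all probes of a gene moved the genotype ratio of Dmkn to -0.11 at passage 1, -0.73 at passage 3 and -0.42 in the mean of both, and that of Sbsn to -0.15, -0.71 and -0.43. Median centring gave -1.49, -1.48 and -1.48 for Dmkn and -1.79, -1.59 and -1.69 for Sbsn, and it reversed late minus early to 0.0086 for Dmkn and 0.21 for Sbsn. Scanner ratios gave -2.05 for Krtdap at passage 3 and reversed its late minus early value to -0.24. Leaving out single arrays gave late minus early values of -0.63 to 0.021 for Dmkn and -0.63 to 0.16 for Sbsn, reversed without the early array of pair 2. The Krtdap passage change then ran from -5.48 to -5.13 in F/- and -6.43 to -5.30 in F/+. For none of these was the cause tested.

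Probes called in the mean ratio numbered 3144, 1934 with scanner ratios, 0 with the arrays of a pair averaged first and 0 to 3966 with 1 array left out. At passage 1, 69 were called with an offset of 0 in place of 0. Passage calls were 664 in F/- and 812 in F/+ without normalization between arrays, and 97 to 3111 and 177 to 4650 with 1 array left out, where the correlation of 0.742 was carried over because it could not be estimated from 3 arrays. With the pair as a replicate block, 3228 probes were called in the mean ratio and 1522 and 1638 with passage in F/- and F/+, and the block changed no call of Krtdap, Sbsn or Dmkn on passage. Counts were not computed for the mean of all probes of a gene. The low Krtdap signal at passage 3 limits its folds.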
